A study of Mus musculus with 10 samples.

Results

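Cluster 17 of the colonic cells was a group of 57 cells from mice given dextran sulfate sodium (DSS), and none of the 57 held a UMI of Ptprc, the gene for the leukocyte antigen CD45. A UMI is a unique molecular identifier, which marks 1 captured transcript molecule. The members were taken from the deposited annotation, in which the colonic cells carry cluster numbers apart from the classes of the organoid cells. They were 57 of 1933 kept DSS cells, a share of 2.95% (95% Clopper-Pearson interval 2.24 to 3.80), of 3065 kept colonic cells and of 25204 kept cells in the whole series. No cell of the normal colon was in the cluster, and for 0 of 1132 kept normal cells the 95% Clopper-Pearson upper limit is 0.325%. The lack of Ptprc UMIs and the lack of normal cells were used to single the cluster out and are no finding.

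The study set single-cell RNA sequencing of mouse intestinal organoids beside that of colonic crypts isolated from normal and from DSS-treated mice. There was 1 DSS library and 1 normal library of colonic crypts, so no difference between the treatments has a replicate check and no p-value is given. The methods list C57BL/6 mice and Lgr5 and Rosa26 reporter lines, and name no strain for the colonic crypts. They give 8-week-old females for colitis and a wider age range for crypt isolation. DSS was given in the drinking water and then withdrawn. The labels name the groups only as normal and as DSS treated, and neither the number of mice in a library nor the day of sampling is stated for these 2 libraries. The kept cells of the DSS library held 32397122 UMIs in all and a median of 16051 per cell, and those of the normal library 19906845 and 18374.5. In the DSS library the Y-linked gene Eif2s3y had 2100 UMIs and Xist, which is expressed from the inactive X chromosome, had 3, whereas the normal library had 0 and 9494. The DSS library thus did not match the sex that the methods give for the colitis mice. The libraries differed in these genes as well as in treatment, and the 2 cannot be told apart in any comparison of cluster 17 with normal cells.

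The colonic surface is lined by absorptive colonocytes, which leave the crypt base as dividing cells, mature on their way up and are shed at the top. Mature colonocytes carry a brush border of microvilli, held together by protocadherins and anchored to actin, and express transporters, carbonic anhydrases and enzymes that detoxify dietary and bacterial compounds. Colonic epithelium answers to microbes and to interferon with secreted lectins of the Reg3 family, serum amyloid proteins and class I antigen presentation. DSS damages this surface and causes colitis.

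The cells of cluster 17 were shallow. Their UMIs ranged from 1001 to 19048 with a median of 2466, and the genes detected from 604 to 3959 with a median of 1120. Only 9 members passed 5350 UMIs, the library's median divided by 3. Mitochondrial UMIs made up 2.17% to 19.9% of a member's total (median 12.9%), against a median of 8.45% in the other kept DSS cells. The median was 13.8% in the DSS cells of cluster 6 and 15.5% in the normal cells of cluster 12. Ribosomal protein genes took 3.68% of the summed UMIs of cluster 17 and 16.4% of those of the other DSS cells, and the nuclear RNA Malat1 had 29733 CPM (counts per 1000000 UMIs) against 6503 CPM. Cluster 12, which held 93 normal cells and 1 DSS cell, had Malat1 at 29591 CPM, and its ribosomal share was 1.64%. These traits moved with the cluster as a whole, and their part in its gene levels was not tested. The methods state a minimum of 1500 genes per cell, which 15 of the 57 members met. Scrublet, a doublet caller, marked 7 of 1933 DSS cells and no member, but at 0.362% of cells it cannot be said to have worked here.

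**Figure D1:**
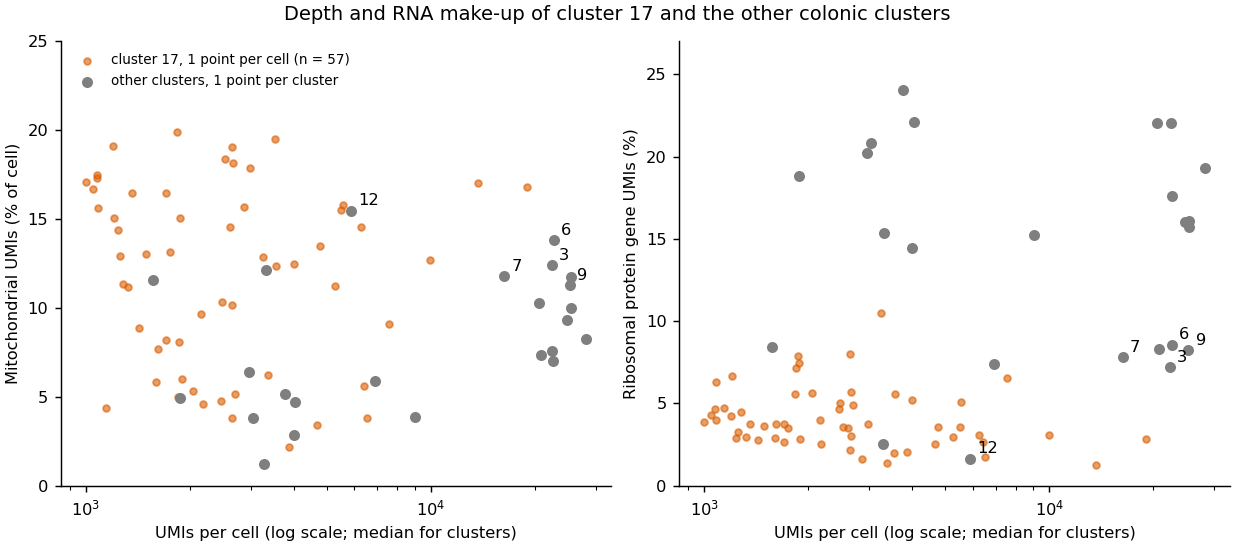
Mitochondrial share (left) and ribosomal protein gene share (right) of the UMIs against UMIs per cell on a log axis. Each orange point is 1 of the 57 cells of cluster 17 and each grey point another colonic cluster, at its median UMIs and median mitochondrial share and at the ribosomal share of its summed UMIs. The median depth of cluster 17 was 2466 UMIs, its ribosomal share lay low at 3.68%, and cluster 12 lay lower still at 1.64%.

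The leading genes of cluster 17 included the carboxylesterases Ces2a and Ces2b, the bile acid transporter Slc10a2, the interferon regulator Irf7 and the acute-phase gene Saa1. Raw UMIs were summed over the members and over the other 1876 kept DSS cells. A gene was past the fold rule at a log2 ratio of CPM + 1 of 2 or more with at least 20 UMIs in the members, or of -2 or less with at least 20 CPM in the other cells. Of 8734 genes with at least 10 CPM in either set, 217 (2.48%) were past the rule and higher in cluster 17 and 784 (8.98%) were past it and lower. The 2 counts have unlike bars, because 20 UMIs in the members are 106 CPM, whereas lower genes needed only 20 CPM in the other cells. A gene at 0 UMIs in cluster 17 could be past the rule and lower although 0 there cannot be told from levels under 15.9 CPM. Since the clusters were made from these same genes, the ratios describe the cluster and test nothing. The 95% intervals are exact Poisson intervals and cover counting error only.

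Among the 20 leading genes, ranked by that ratio with a UMI in at least 25% of members, the ratio ran from 4.10 to 6.29 on the log2 scale. They were 2010001M07Rik, Ces2b, Cyp4b1, Sgk2, Hkdc1, Slc10a2, Ces2a, Gal3st2, Ddx60, Apol7a, Tmigd1, Cpn1, Enpep, Prap1, Irf7, Gcnt1, Clec2e, Selenop, Saa1 and Lhfpl2. All 20 were also past the rule against the 404 DSS cells of clusters 6, 7 and 9, and 19 were past it against all normal cells, with Ddx60 the exception. The 404 cells hold 8099276 of the 32208676 UMIs of the ranking's reference, and no leading ratio was under 4.10. The count of 20 was therefore fixed by the ranking and is no finding. The same holds wherever a leading gene is counted as higher against clusters 6, 7 and 9. Those 3 clusters were chosen after the values were seen, as the clusters of mainly DSS cells whose log2(CPM + 1) over 11370 genes correlated best with that of cluster 17 (Pearson r of 0.884, 0.859 and 0.865). Each of the 20 was higher than in the other DSS cells both in the 28 shallowest members and in the 28 deepest. The genes were ranked on these same members, so this describes them and is no check against depth. The size of the difference varied with depth for some. Ces2b had 284 CPM in the shallow members and 285 CPM in the deep ones, Cyp4b1 94.5 and 334 CPM, and 2010001M07Rik 378 and 188 CPM.

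The carboxylesterase Ces2b, which hydrolyses ester drugs and lipids, had 53 UMIs in 24 members, 281 CPM (95% interval 211 to 368), against 6.15 CPM in the other DSS cells and 4.81 CPM in normal cluster 12. Its neighbour Ces2a, of the same family, had 1332 CPM (95% interval 1172 to 1507) against 46.3 CPM and was seen in 47 of 57 members. Cyp4b1, a cytochrome P450, had 287 CPM (95% interval 215 to 374) against 7.30 CPM. Ces2b lies on chr8:104831572-104840093, plus strand, and Ces2a on chr8:104734003-104741634, plus strand (GRCm38, GENCODE M21). Of 18 carboxylesterases 8 were tested and 4 were past the rule, all higher (Ces2a, Ces2b, Ces2c and Ces2e). Of 85 cytochromes P450 21 were tested, 9 were higher and 1, Cyp2c68 at 0 UMIs, was lower. The median log2 ratio was 2.20 for the esterases and 2.96 for the P450 genes, beside -0.04 over all genes tested. In cluster 17, 10 esterases and 64 P450 genes had 0 UMIs. Genes under 10 CPM in the other cells were tested only if cluster 17 reached it, so these medians lean to higher values. Against clusters 6, 7 and 9, where 95 of 8031 genes (1.18%) were higher and 219 (2.73%) lower, 2 esterases and 3 P450 genes were higher and none lower, and the median over all genes was 0.20. Close copies within these families, and within the Saa and Reg3 genes, can share reads, and how reads were split between them was not examined.

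**Figure D2:**
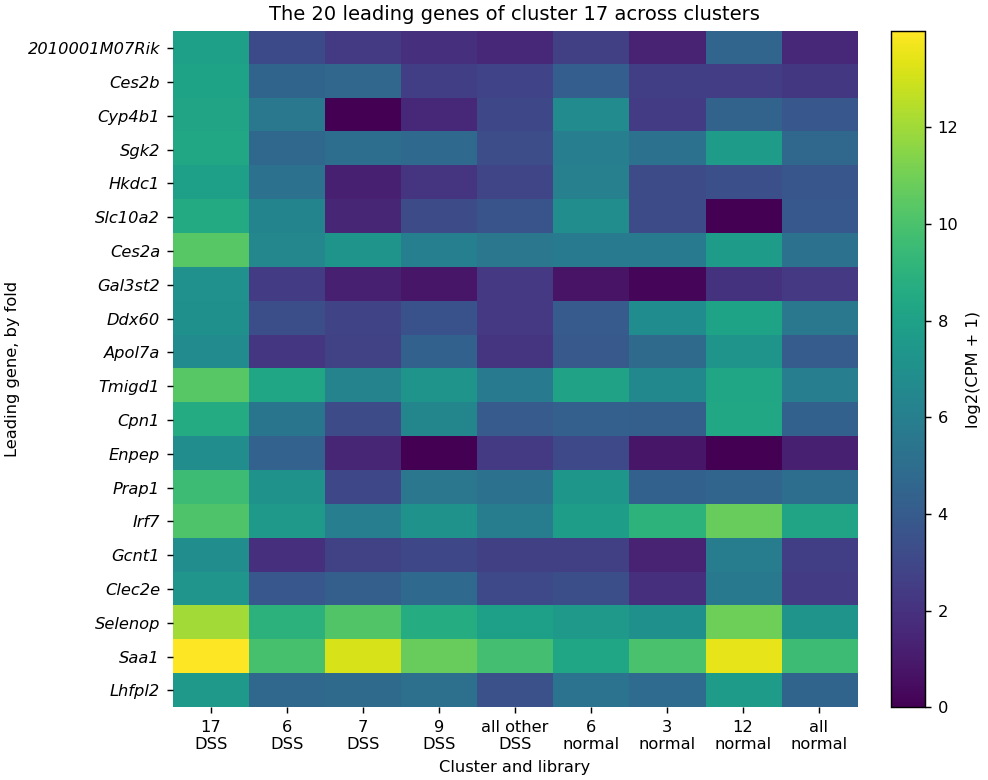
Levels of the 20 leading genes of cluster 17, as log2(CPM + 1) of summed UMIs, in cluster 17, in DSS clusters 6, 7 and 9, in all other kept DSS cells, in normal clusters 6, 3 and 12 and in all kept normal cells. Cluster 17 has the highest level for 2010001M07Rik, Ces2b, Slc10a2 and Saa1, whereas Irf7 and Ddx60 were higher in normal cluster 12, at 1687 and 279 CPM.

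Transporters of bile acids were high in cluster 17, and cluster 6, the cluster most like it, had them too. Slc10a2, the apical sodium-dependent bile acid transporter, is known mainly from the terminal ileum. Its gene lies on chr8:5083219-5105351, minus strand (GRCm38). It had 71 UMIs in 29 members, 377 CPM (95% interval 294 to 475), against 11.6 CPM in the other DSS cells, and the count per member ran from 0 over a median of 1 to 9. Cluster 6 came next, with 79.1 CPM in its DSS cells and 115 CPM in its normal cells, and cluster 12 had 0 UMIs. Slc51a and Slc51b, the 2 subunits of the exporter that moves bile acids out through the basolateral side, had 859.7 and 478 CPM against 81.1 and 66.9 CPM. In cluster 6 they had 479 and 288 CPM in DSS cells and 729 and 393 CPM in normal cells. Of 10 bile acid genes listed after values were seen, 6 could be tested, 3 were higher and none was lower, and against clusters 6, 7 and 9 only 1 of the 6, Slc10a2, was higher. The summed level of the list was 2165 CPM in cluster 17, 1359 CPM in the DSS cells of cluster 6 and 2013 CPM in its normal cells. The bile acid receptor Nr1h4 had 191 CPM (95% interval 134 to 264) against 70.2 CPM and was not past the rule, and its target Fgf15 was at 0 UMIs. Fabp6, the ileal bile acid binding protein, had 6 UMIs in 3 members.

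Colonocyte genes were high in cluster 17, and those of other intestinal cell types were mostly lower than in the other DSS cells, which hold such cells. Of 10 colonocyte markers 9 were tested and 6 were past the rule, all higher, with a median log2 ratio of 2.39. Car4, a membrane carbonic anhydrase of mature colonocytes, had 2192 CPM (95% interval 1985 to 2414) against 133 CPM, with 1182 CPM in DSS cluster 7 and 5134 CPM in cluster 12. Guca2a, the hormone guanylin, was found in all 57 members, at 527 to 16214 CPM per cell with a median of 5833, and had 5524 CPM in the sum against 769.6 CPM. The water channel Aqp8 (589 against 112 CPM), the adhesion molecule Ceacam20 (451 against 72.9), Cyp2c55 (1597 against 146) and the membrane mucin Muc3 (3369.7 against 812) were the other 4.

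The colonocyte list did not move as one. Car1, a cytosolic carbonic anhydrase that is abundant in colonocytes, had 2929 CPM against 4945 CPM in the other DSS cells, and 22813 CPM in those of cluster 6. The chloride exchanger Slc26a3 had 106 CPM (95% interval 64.8 to 164) against 101 CPM, a difference within counting error, and Slc37a2 was at 0 UMIs. Against clusters 6, 7 and 9 only Car4 was past the rule and higher and Car1 past it and lower, and the median fell to 0.69. After each cell was thinned to 1000 UMIs, a median of 6 of the 10 markers had a UMI in a member, as in a cell of normal cluster 12, and a median of 4 did in DSS cluster 6 and of 5 in normal cluster 6. Against cluster 12, 1 of 10 markers was higher and 3 were lower, with a median log2 ratio of -0.99. Cluster 17 nevertheless stayed without a cell type name, because the median depth of its library was 6.51 times its own and none of its 20 leading genes was on any marker list. The second reason rests on the cut at 20 genes, since the first colonocyte marker stood at rank 21.

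Brush border genes were high in cluster 17. Of 20 genes listed after values were seen, 18 were tested, 10 were past the rule and higher and none was lower, with a median log2 ratio of 2.38. The protocadherins Cdhr2 and Cdhr5, which link neighbouring microvilli, had 1539 and 2632 CPM against 119.7 and 260.1 CPM. Tmigd1, an adhesion protein of the brush border, had 1295 CPM (95% interval 1137 to 1468) against 54.2 CPM. The others were the motor Myo7b, the actin regulators Eps8l2 and Pls1, and the surface peptidases Mep1a, Mep1b, Enpep and Naaladl1. Villin (Vil1), a pan-epithelial core protein of microvilli, had 658 CPM (95% interval 547 to 785) against 213 CPM and was not past it. In the comparison with clusters 6, 7 and 9, 7 of the 18 were higher and none lower. Normal cluster 12 had them too, with a summed level of 8883 CPM against 10894 CPM in cluster 17, and 3 of the 18 were higher in cluster 17 with a median log2 ratio of 0.43, beside 0.64 over all genes in that comparison.

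Of 10 pan-epithelial markers, 9 were not past the rule and Krt18 was lower. The median log2 ratio was 0.13, and -0.10 against clusters 6, 7 and 9. Epcam had 2627 CPM (95% interval 2400.4 to 2869) against 2167 CPM and was detected in 52 members, and Krt8 had 3221 against 5911 CPM with a UMI in all 57. Krt18, which pairs with Krt8 in the filaments of simple epithelium, had 14 UMIs, 74.3 CPM (95% interval 40.6 to 125), against 876 CPM in the other DSS cells, 356 CPM in clusters 6, 7 and 9 and 2033 CPM in cluster 12. Of 6 keratins tested Krt18 and Krt7 were lower and none higher, and against clusters 6, 7 and 9 Krt19 was lower too, at 1051 against 4475 CPM. Of 7 genes of the EGF family tested 2 were higher and 2 lower, beside 2.48% higher and 8.98% lower of all genes tested. The receptors Erbb2 (302 against 43.5 CPM) and Erbb3 (292 against 68.1) were higher, and the ligands Areg (58.4 against 540.4) and Hbegf (122 against 574) were lower. Against clusters 6, 7 and 9 Erbb2 was past the rule and Erbb3 was not, and none of the family was higher against normal cluster 12.

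Markers of other cells the gut can hold were compared with DSS cells that hold such cells and with the like clusters. Of 8 pan-immune genes 7 were past the rule and lower than in the other DSS cells, which include clusters rich in Ptprc, and 6, Ptprc among them, had no UMI in any member. The 0 of Ptprc was fixed by the choice of the cluster, so its part in these counts is no finding. The list median of -4.92 rests on genes at 0 and the pseudocount of 1 CPM. With zeros set to the floor of 15.9 CPM it was -1.74. Against clusters 6, 7 and 9 only 2 of the genes could be tested, neither was past the rule, and their median was 2.05. The summed level of the list was 37.1 CPM in cluster 17, 7.43 to 40.8 CPM in each of those clusters and 588 CPM in all other DSS cells. No goblet, enteroendocrine, tuft, crypt stem or proliferating marker was past the rule and higher than in the other DSS cells, out of 32 tested. Of all genes tested 2.48% were higher, so a count of 0 out of 32 says little. Goblet markers depended on the reference cells, with a median log2 ratio of -2.16 against the other DSS cells, 0.97 against clusters 6, 7 and 9, where none of 8 was past the rule, and 0.53 against normal cluster 12, where 3 of 8 were higher and 1 lower. Their summed level was 1152 CPM in cluster 17, against 246 to 1089.7 CPM in each of DSS clusters 6, 7 and 9, 477 CPM in cluster 12 and 6773 CPM in all other DSS cells. Enteroendocrine markers summed to 95.5 CPM, against 23.2 CPM in clusters 6, 7 and 9 and 473 CPM in all other DSS cells. The goblet mucin Muc2 had 239 CPM against 1235, all 10 tuft cell markers were at 0 UMIs, and so were Lgr5 and Mki67. Smooth muscle, endothelial, glial and neuronal markers were all under 10 CPM in both sets, with 0 UMIs in cluster 17. Fibroblast markers summed to 31.8 CPM in cluster 17, 5.19 CPM in clusters 6, 7 and 9 and 76.7 CPM in all other DSS cells. None of the 4 fibroblast markers tested against the other DSS cells was past the rule.

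Transcripts that mark plasma cells and neutrophils were nevertheless present in some members. Igkc, an immunoglobulin light chain, had 10 UMIs, or 53.1 CPM, against 2799 CPM in the other DSS cells and 16.7 CPM in clusters 6, 7 and 9. At 1000 UMIs per cell, 13 of 57 members (22.8%) held a UMI of Igkc, Igha, S100a8 or S100a9, and so did 37 of 404 cells (9.16%) of clusters 6, 7 and 9. In DSS cells under 4000 UMIs outside cluster 17 and the 6 clusters rich in Ptprc, in which over 50% of cells held a Ptprc UMI, 75 of 245 (30.6%) did. The part of such transcripts in the levels of cluster 17 was not tested. Ces2a, 1 of the genes chosen on these cells, had a UMI in 63.2% of thinned members, 10.9% of cells in clusters 6, 7 and 9 and 0.899% of cells in the DSS clusters rich in Ptprc.

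Most members held several of the leading genes at once. At 1000 UMIs a member held a UMI of 2 to 11 of the 20 genes, with a median of 7, and 51 of 57 (89.5%, 78.5 to 96.0) held 5 or more. Of the other DSS cells, 11 of 1876 (0.586%) did. The counts were 7 of 157 DSS cells of cluster 6, 0 of 139 of cluster 7, 3 of 108 of cluster 9, and 0 of 245 shallow DSS cells outside the clusters rich in Ptprc. In normal cluster 12, 34 of 93 cells (36.6%) reached 5. The genes were chosen as high and widely detected in cluster 17 against the other DSS cells. The high share of members and the low shares of the other DSS cells follow from that choice and describe the cluster only. Whether the genes met in the same cells more often than separate detection would give was not tested.

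Some genes of defence and interferon were high in cluster 17, and others on the same lists were low. Saa1, serum amyloid A, was the seventh most abundant transcript of cluster 17, with 16286 CPM against 913 CPM in the other DSS cells, and every member held it, from 1470.0 over a median of 11485 to 49276 CPM. DSS cluster 7 had 8968 CPM and normal cluster 12 had 11186 CPM. The bactericidal lectin Reg3b had 20059 CPM against 6654, and its relative Reg3g 6347 against 1173 CPM. In the DSS cells of cluster 6 the 2 lectins had 26543 and 4979.8 CPM. Of 16 antimicrobial genes 4 were higher (Reg3g, Saa1, Saa3 and Duox2) and 6 lower, among them the neutrophil products S100a8, S100a9 and Camp and the protease inhibitor Slpi, and their median log2 ratio was -0.85. The direction turned with the reference cells. Against all normal cells 5 of 15 were higher and 1 lower, with a median of 3.40, and against clusters 6, 7 and 9 the counts were 1 and 1 of 15, with a median of 0.70.

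Of 17 interferon and class I genes, 5 were past the rule and higher, 2 were lower (Ifitm3 and Cxcl10) and the median log2 ratio was 0.94. Irf7, the transcription factor that amplifies the interferon response, had 1141 CPM (95% interval 993 to 1304) against 58.5 CPM and was seen in 50 members. The class I heavy chain H2-K1 had 5460.4 against 704 CPM with a UMI in all 57, and its partner B2m 3173 against 568 CPM. Ifit1, which binds viral RNA, and Isg15, a ubiquitin-like modifier, had 228 and 122 CPM against 15.4 and 29.5 CPM. Against all normal cells, where 191 of 8645 genes (2.21%) were past the rule and higher and 751 (8.69%) lower, Irf7 and H2-K1 were higher, Ifitm3 and Cxcl10 lower, and the median was 0.01. Of 6 class II genes, 3 were lower than in the other DSS cells, which include those clusters, and none was higher. Against normal cells none of 3 tested was past the rule, with a median of 1.72, and against clusters 6, 7 and 9 none of 4, with a median of 0.15.

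**Figure D3:**
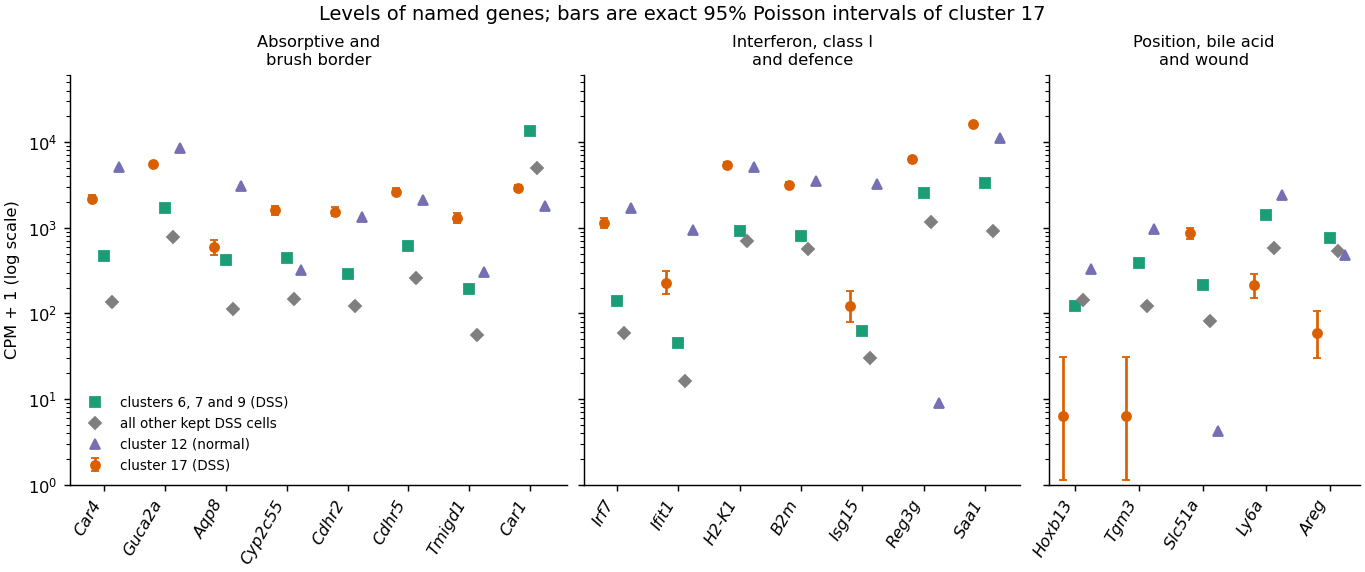
CPM + 1 on a log axis for named genes in cluster 17 (orange, with exact 95% Poisson intervals), in DSS clusters 6, 7 and 9 together (green squares), in all other kept DSS cells (grey diamonds) and in normal cluster 12 (purple triangles). Car4, Cdhr5 and H2-K1 lie high in cluster 17 and in cluster 12, Reg3g and Slc51a are high in cluster 17 and near 0 in cluster 12, and Hoxb13 and Tgm3 are near 0 in cluster 17, as they were in DSS cluster 6, which the plot pools with clusters 7 and 9.

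Letters known for interferon regulation stood before several of these genes. Promoter windows of 250 bases upstream of the start were taken from RefSeq (GRCm38.p6), which matched 18 of the 20 leading genes and all 5 interferon and class I genes past the rule. The interferon-stimulated response element was searched as GAAA, 2 bases of any kind and GAAA again, on both strands, allowing overlaps, and was found before 936 of 27018 genes (3.46%). It stood before 4 of the 18 leading genes (Gal3st2, Ddx60, Tmigd1 and Selenop) and before 3 of the 5 interferon and class I genes (Isg15, Ifit1 and B2m), of which Irf7 is also a leading gene. A match is a description of the letters and not a bound site. A stretch of each of 3 of these promoters is shown because their genes were among those past the rule, and so is the stretch before Slc10a2 that holds the letters of an HNF1 site (GTTAAT, 1 base of any kind, ATT), found in either direction before 119 genes (0.440%). Capitals mark the match, which for Ifit1 and Slc10a2 lies on the opposite strand to the gene.
Ddx60, chr8:61928008-61928086, plus strand: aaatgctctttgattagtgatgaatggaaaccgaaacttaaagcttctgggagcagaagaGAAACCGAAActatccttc
Isg15, chr4:156200821-156200950, minus strand: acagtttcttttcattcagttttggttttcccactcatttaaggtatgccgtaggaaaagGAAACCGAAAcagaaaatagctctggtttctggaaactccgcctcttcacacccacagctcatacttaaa
Ifit1, chr19:34640744-34640873, plus strand: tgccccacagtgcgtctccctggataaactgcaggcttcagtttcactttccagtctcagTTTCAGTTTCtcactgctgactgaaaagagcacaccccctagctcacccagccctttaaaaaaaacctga
Slc10a2, chr8:5105439-5105537, minus strand: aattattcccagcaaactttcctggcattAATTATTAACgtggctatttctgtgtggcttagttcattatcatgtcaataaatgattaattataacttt

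In the Ddx60 stretch a second copy of the same letters stands in lower case ahead of the marked one, and the start site follows the marked copy after 9 bases. The Ifit1 stretch also holds another match in lower case ahead of the marked one, and in the Isg15 stretch further matches overlap the marked one. Ddx60, an interferon-induced helicase, had 24 UMIs in 15 members, 127 CPM (95% interval 81.6 to 189), against 4.07 CPM in the other DSS cells and 279 CPM in normal cluster 12. Letters searched for CDX factors (TTTATNG) stood before 4 of the 18 leading genes and 11.3% of all genes, and those for HNF4 (CAAAGTCCA) before none of the 18 and 0.452% of all.

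Several genes of other colonic epithelium were at or near 0 in cluster 17, some of them in cluster 6 as well. The 10 lowest genes, among those of at least 100 CPM in the other DSS cells, were Aqp4, Nme1, Ngp, Cd52, Sult1a1 and Slpi at 0 UMIs, and Igkc, Jchain, Chgb and Nr4a1 at 1 to 10 UMIs. Ngp, Cd52, Igkc, Jchain and Chgb are products of neutrophils, lymphocytes, plasma cells and enteroendocrine cells. Aqp4, a water channel, is also an epithelial gene of clusters 6, 7 and 9, where it had 164 CPM, so that cluster 17 was at least 10.3-fold lower. Hoxb13, a homeobox gene of the distal colon, had 1 UMI in cluster 17, 5.31 CPM (95% interval 0.134 to 29.6), against 142 CPM in the other DSS cells, a log2 ratio of -4.51 (counting interval -7.02 to -2.19). Its level differed between the like clusters, at 3.27 CPM in DSS cluster 6, 401 in DSS cluster 7 and 330.0 in normal cluster 12. Tgm3, a transglutaminase, had 1 UMI as well, against 1412 CPM in DSS cluster 7 and 976 CPM in cluster 12, but in cluster 6 it was as low, at 2.68 CPM in DSS and 4.04 CPM in normal cells.

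No gene listed for wound and revival epithelium was past the rule and higher in cluster 17. Of 10 such markers 6 were tested, none was higher and Anxa3 was lower. Over all 8734 genes tested 2.48% were higher and 8.98% lower, so these counts alone do not set the list apart. Against clusters 6, 7 and 9 and against normal cluster 12, 4 of 6 were lower, with medians of -2.42 and -2.26. There 2.73% and 2.5% of all genes tested were lower. Ly6a, which encodes the regenerative marker SCA1, had 212 CPM (95% interval 152 to 289) against 582 CPM in the other DSS cells and 1403 CPM in clusters 6, 7 and 9, the latter past the rule. Anxa1 had 84.9 against 283 CPM, and Clu 4 UMIs, 21.2 against 54.7 CPM. YAP targets had 3 of 7 tested genes lower and none higher, S100 and annexin genes 7 of 13 lower (1 of 12 against all normal cells), and Wnt targets 2 of 3 lower. With zeros set to the floor of 15.9 CPM, the median log2 ratio of the Wnt targets went from -4.73 to -0.65. That of the S100 and annexin genes went from -2.26 to -1.72, and that of the YAP targets stayed at -1.29. Over all genes tested 8.98% were lower, and 8.69% against all normal cells. The study built a list of genes that rise with injury from several injury models, 1 of them DSS colitis. Of 58 of its genes tested, 2 were higher (Reg3g and Duox2) and 11 lower, with a median log2 ratio of 0.41, and against clusters 6, 7 and 9 none of 55 was higher and 11 were lower. That list is no independent evidence on DSS cells.

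Cluster 12 of the normal colon was near cluster 17 in its Malat1 level but deeper, with a median of 5847 UMIs per cell against 2466. Cluster 12 was chosen for comparison after its values were seen. Of 7735 genes tested, 89 (1.15%) were past the rule and higher in cluster 17 and 193 (2.5%) lower, and the median log2 ratio over all was 0.64. Of the 20 leading genes 10 were past the rule and higher in cluster 17 (2010001M07Rik, Ces2b, Cyp4b1, Hkdc1, Slc10a2, Ces2a, Gal3st2, Tmigd1, Enpep and Prap1) and none was past it and lower. Irf7 and Ddx60 were among those lower in cluster 17 without being past it. Reg3b had 20059 CPM in cluster 17 against 28.8 in cluster 12, Reg3g 6347 against 8.01, and Slc51a 859.7 against 3.20 CPM. In the other direction Isg15 had 122 CPM against 3242, Aqp8 589 against 3059.6, and Nt5e 0 UMIs against 168 CPM, at least 10.6-fold lower. Of 15 interferon and class I genes tested here, 5 were lower in cluster 17 and none higher. The libraries, the treatments and the sex-linked genes differ between the 2 clusters, so these differences cannot be told apart from any of them.

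Barcodes with the same leading genes also lay outside the kept cells, in both libraries. The library matrices held 2813 DSS and 2495 normal barcodes that the deposited table leaves out, most of them at over 20% mitochondrial UMIs, above the highest value of any kept cell. They were compared after thinning to 800 UMIs outside mitochondrial genes. Of 1997 such DSS barcodes deep enough, 412 (20.6%, 18.9 to 22.5) held 5 or more leading genes, and of 1699 normal ones 563 (33.1%, 30.9 to 35.4) did, against 51 of the 57 members. With the 10 leading genes that were higher in cluster 17 than in cluster 12, 3 or more were found in 32 members (56.1%), in 177 DSS barcodes outside the table (8.86%) and in 100 normal ones (5.89%), against 7 of 1876 other kept DSS cells and 2 of 1132 kept normal cells. These 10 genes were chosen as higher in cluster 17 than in the other kept DSS cells and in cluster 12, so the low counts of kept cells cannot be read apart from the choice. Barcodes that reached these counts were found in both libraries, whereas the cluster as annotated held DSS cells alone.

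**Figure D4:**
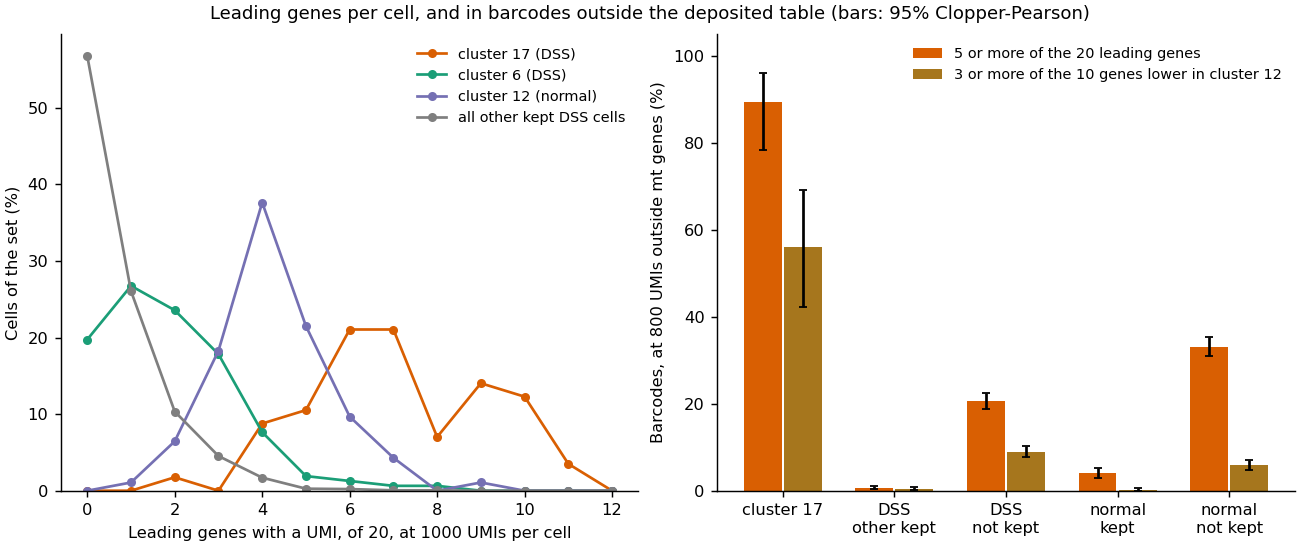
Left, the percentage of cells by the number of the 20 leading genes with a UMI at 1000 UMIs per cell, for cluster 17, DSS cluster 6, normal cluster 12 and all other kept DSS cells. Right, the percentage of barcodes at 800 UMIs outside mitochondrial genes with 5 or more of the 20 leading genes, and with 3 or more of the 10 that were lower in cluster 12 than in cluster 17, with 95% Clopper-Pearson intervals. The median was 7 genes in cluster 17, and barcodes outside the deposited table reached 5 genes in 20.6% of the DSS library and 33.1% of the normal library.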

How the data were processed

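Cells of colonic crypts were sequenced with the 10x Genomics 3' kit. Per the methods, the authors counted UMIs with Cell Ranger 3.0.0 (the matrix headers name another version) and filtered and clustered cells in Seurat 3.1.4. The deposited values are raw UMI counts per gene and cell, in a table of 23810 genes and 25204 kept cells, with 0 columns mapped to no sample. Table and library matrices hold the same totals for the kept colonic cells. The members and the gene lists were chosen with earlier results of these data known. UMIs were summed per cell set and divided by the total (CPM), with a pseudocount of 1 CPM for ratios, in Python 3.11.15 with numpy 2.4.6, scipy 1.17.1 and scanpy 1.11.5. Exact Poisson and Clopper-Pearson 95% intervals cover counting error only. With 1 library per group there was no test. Named genes were the 20 of highest ratio with 20 UMIs and a UMI in 25% of members, the 10 lowest of 100 CPM or more in the reference, and members of the lists. Genes named outside these, such as Tgm3 and Nt5e, were chosen after their values were seen. TMM factors for 1 alternative came from edgeR 4.0.16 in R 4.3.3. Kept cells of the 2 colonic libraries shared 2 barcodes, none of a member. Alternatives covered the reference cells, depth, pseudocount, filters, scaling and doublets. Organoid libraries served only for the levels of the leading genes.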

Additional observations from a re-analysis of the deposited data

Results flagged for a closer look

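Barcodes outside the deposited table held 5 or more of the 20 leading genes of cluster 17 at a share above that of all kept cells of the normal library and below that of their cluster 12. At 800 UMIs outside mitochondrial genes, 20.6% of 1997 DSS barcodes outside the table and 3.98% of 1132 kept normal cells (2.91 to 5.28) held 5 or more of the 20 leading genes, and within the latter 39 of 93 cells of cluster 12 (41.9%, 31.8 to 52.6) did. At 800 UMIs outside mitochondrial genes, 8.86% of 1997 DSS barcodes (7.65 to 10.2) held 3 or more of the 10 leading genes that were higher in cluster 17 than in cluster 12. The share was 5.89% (4.81 to 7.11) in the 1699 normal barcodes outside the table and 0.177% in the kept normal cells, with 0 of 93 in cluster 12. The shares of kept normal cells cannot be read apart from the choice of the genes against those of cluster 12. The DSS barcodes outside the table that held 5 or more of the 20 leading genes numbered 412, and their levels are counts per 1000000 UMIs outside mitochondrial genes. Guca2a had 5766 in them and 6292 in cluster 17, Car4 1882 and 2496, and Reg3b 17384 and 22847. The ratio was further from 1 for Isg15, at 416 and 139, Tgm3, at 62.2 and 6.04, and Car1, at 6821 and 3336. Hoxb13 was at 28.7 (20.1 to 39.7) against 6.04 (0.153 to 33.7) in cluster 17, where it had 1 UMI, and the counting intervals overlap. Ptprc was at 2.39, and its 0 in cluster 17 was fixed by the choice of the cluster. In the 563 normal barcodes with 5 or more leading genes, Reg3b had 746 and Hoxb13 177. The median mitochondrial share was 50.3% in the DSS barcodes outside the table and 44.8% in the normal ones. Of DSS barcodes at up to 20% mitochondrial UMIs 1 of 54 held 5 or more of the 20 genes. From there to 40% 112 of 574 did, and above 40% 299 of 1369. In the normal library the counts were 1 of 38, 216 of 618 and 346 of 1043. What set these barcodes apart was not tested.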

How the results depend on the processing

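Counts of genes past the fold rule moved with depth and with the reference cells. Against the other DSS cells, the 217 higher genes became 94 at 3000 UMIs per cell, 92 at 1000, 336 against the median of the other clusters, 130 under the stated cell filter, 95 against DSS clusters 6, 7 and 9 and 128 against shallow DSS cells. At 3000 UMIs only 18 of the 57 members remained, so depth and membership changed together there. The 784 lower genes became 1458 and 1395 at 3000 and 1000 UMIs, 418 against the median of clusters, 372 with a pseudocount of 10 CPM, 391 with a minimum of 50 CPM and 219 against clusters 6, 7 and 9. Against normal cells, the 191 higher genes became 66 at both depths and 118 under the stated filter, and the 751 lower ones 1359, 1244, 334 and 384 at 3000 and 1000 UMIs, with the pseudocount and with the minimum. The colonocyte median of 2.39 was 1.27 against normal cells, 4.42 against the median of clusters, 0.69 against clusters 6, 7 and 9 and 1.30 against shallow cells, and the interferon median of 0.94 was 0.0143 against normal cells. The brush border median of 2.38 was 1.86 with no minimum level and 2.74 with a minimum of 50 CPM. It was 3.56 against the median of clusters and 1.79 against clusters 6, 7 and 9. The share of 2.95% was 1.07% under the stated filter and 3.83% without the clusters rich in Ptprc. At least 3 colonocyte markers were held by 68.1% of DSS and 72.4% of normal cells, a class far wider than the cluster.

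Of 280 values for leading genes over the 14 alternatives that could change a ratio, 181 moved by less than their counting interval, 99 moved and 0 turned, with log2 ratios from 1.38 to 7.49. The antimicrobial median of -0.85 became 3.40 against normal cells, 2.25 against the median of clusters and 0.70 against clusters 6, 7 and 9, and the pan-epithelial median of 0.13 became -0.06 with TMM factors, -0.10 against clusters 6, 7 and 9 and -0.01 against shallow cells. With pseudocounts of 0.1 and 10 CPM the pan-immune median was -8.20 and -2.22, with 6 of its genes at 0 UMIs. The pan-immune median became 0.84 without the clusters rich in Ptprc, 0.95 against the median of clusters and 2.05 against clusters 6, 7 and 9, and the goblet median 0.40 and 0.97 in the last 2. Against normal cells, the median of clusters and clusters 6, 7 and 9, Igkc became 2.56, 0.91 and 1.61 and Jchain 2.59, 0.63 and 0.86, and in the last 2 Chgb became 1.01 and 1.14. Thinning to 1000 UMIs, every alternative for the comparison with normal cells, clusters 6, 7 and 9 and the shallow cells as references were chosen after seeing the data. Leaving out 1 library was not possible, and the cause of the other moves was not tested. No paired analysis was possible because each group had 1 library. With 188446 UMIs in cluster 17, a level under 15.9 CPM could not be told from 0.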

Other observations

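In the organoid libraries of the series many leading genes of cluster 17 were barely detected. These are libraries of small intestinal epithelium grown in ENR medium, in the Hyper medium, or in that medium without valproic acid and EPZ6438 (-VE). The libraries of a group differ in passage number. In the ENR and Hyper groups they also differ in origin, since a library of each was started from primary crypts. The SDs below therefore span passage and origin and are not the spread of like replicates. Of the 20 leading genes 9 were under 1 CPM in every ENR library, 10 in every -VE library and 8 in every Hyper library. Saa1, at 16286 CPM in cluster 17, was listed at 0 in all 3 ENR libraries. Prap1, a lipid-binding protein of enterocytes, had 564 ± 104 CPM (SD, n = 3) in ENR-organoids and 77.2 ± 12.4 CPM (SD, n = 3) in Hyper-organoids, against 785 CPM in cluster 17. Ces2a had 188 ± 29.6 CPM (SD, n = 3) and 300.3 ± 243 CPM (SD, n = 3), against 1332 CPM. In the cells annotated as enterocytes alone the levels of these 2 genes were higher. There Ces2a had 984 ± 48.4 CPM (SD, n = 3) in ENR-organoids and 1618 ± 788 CPM (SD, n = 3) in Hyper-organoids, and Prap1 1866 ± 262 CPM (SD, n = 3) and 1940.0 ± 449 CPM (SD, n = 3). Some other leading genes came near their cluster 17 level in these enterocytes. Clec2e had means of 109 and 120 CPM in ENR- and Hyper-organoids, against 154 CPM. Enpep had means of 101 and 33.4 CPM, against 117 CPM. Others stayed low there, such as Cpn1 at 1.94 ± 0.838 CPM (SD, n = 3) and 20 ± 11.4 CPM (SD, n = 3), against 382 CPM. In the whole libraries Cpn1 was higher, at 6.56 ± 0.577 CPM (SD, n = 3) and 46.6 ± 3.94 CPM (SD, n = 3). Saa1 was listed at 0 in these enterocytes. Tissue, culture and treatment differ between these libraries and cluster 17 and cannot be told apart.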
